A study of Mus musculus with 8 samples.

Results

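The genes described here encode the machinery that copies nuclear DNA in S phase. They are 48 named genes, taken from the deposited table by symbol with case ignored, out of 23765 genes in the table, and each gene is represented by its transcript with the highest mean level over both groups. All 48 were found, and all 48 had a mean of at least 1 RPKM (read density scaled to transcript length and to library total) in either group, the limit used for a gene to count as tested. They were sorted into origin licensing (9 genes), the helicase and its activation (14), the polymerases (9), the clamp, its loader and strand processing (11) and nucleotide supply (5).

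RNA sequencing compared the testes of mice in a wild-type and a Dio3KO-labelled group, with 4 biological replicates in each group, all on the 129/SVJ background and at postnatal day 5. The product of Dio3 is a deiodinase that breaks down thyroid hormones, and the title of the study names genes of the neonatal testis regulated by thyroid hormone as its subject. Which stretch of Dio3 was altered, and in which cells, is not in the labels, nor is it said whether testes of several animals were pooled. Only group means, the coefficient of variation of each group (CV, the SD divided by the mean) and an adjusted p were deposited, so single samples are not shown and read depth is unknown. 

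Dio3 itself was listed at 0.52 RPKM (CV 0.2) in wild type and 2.95 RPKM (CV 0.29) in the group labelled Dio3KO, and the authors' deposited table lists 0.0408 as its adjusted p. Loss of the transcript would not give this, but the altered stretch is unknown and the reads may lie outside it. The label could therefore be neither borne out nor contradicted by this RNA. The group is called Dio3KO-labelled throughout, and every direction below rests on that label. The extraction text names hypothalami while the labels give testis as the tissue. Sertoli cell genes were abundant (Clu at 797 and 1232 RPKM in wild type and Dio3KO-labelled, Ctsl at 601 and 611 RPKM), as were the germ cell gene Dazl (89.7 and 89.7 RPKM) and the Leydig cell gene Hsd3b1 (158 and 245 RPKM). Of 10 hypothalamic marker genes found in the table, 7 were under 1 RPKM in both groups, and the 2 with the highest level were Pmch (1.89 and 1.05 RPKM) and Agrp (1.49 and 0.77 RPKM).

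As background, replication begins when the origin recognition complex, with Cdc6 and Cdt1, loads the ring of Mcm2 to Mcm7 onto DNA. In S phase the kinase Cdc7 and the GINS proteins help to turn that ring into a working helicase, polymerase alpha with primase lays down primers, and polymerases delta and epsilon extend them on the sliding clamp PCNA. Many of these genes are transcribed under the control of E2F factors as cells enter the cycle. In the newborn testis, Sertoli cells and germ cells both divide, and thyroid hormone is known to bring Sertoli cell division to an end.

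Nearly all replication genes had a lower mean in Dio3KO-labelled testes, 47 of 48. Of the 48 members, 41 fell, 0 rose and 7 did not pass the threshold of 0.05 on the adjusted p in the authors' deposited table. Over all 15225 genes tested, 15.9% were called lower and 14.0% higher by the same rule, or 29.9% in either direction. The median log2 ratio of the members (Dio3KO-labelled mean over wild-type mean, each with 0.5 RPKM added) was -0.49, against -0.05 for all genes tested. Errors of log2 ratios are SEs computed from the deposited CVs. The differences were moderate in size: the Dio3KO-labelled mean was between 54.3% and 101% of the wild-type mean, and 0 members reached a 2-fold difference on the log2 scale. Summed over the members, the level was 1791 RPKM in wild type and 1272 RPKM in Dio3KO-labelled testes, or 71.0% of wild type. The sum over all 23765 genes in the table was 90.2% of wild type. A moderated limma test computed from the deposited means and CVs called 45 members lower and 0 higher, with 46 lower and 0 higher at an unadjusted p below 0.05, while 23.2% of all genes were called lower by that test and 18.6% higher, or 41.8% in either direction. An unequal-variance test recomputed from the same values called 41 lower and 0 higher.

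In a whole testis, fewer cells of a type and less RNA per cell cannot be told apart. Spread within groups was small for the members: their CVs ran from 0.02 to 0.15 in wild type and from 0.01 to 0.1 in Dio3KO-labelled testes. The ranges of the mean ± SD overlapped between the groups for Orc2, Orc3 and Orc4. They lay apart for the other members, among them Orc1, Gins4, Rfc4 and Rpa3, which did not pass the threshold. How often such ranges lie apart over all genes tested was not counted. The total RPKM over all transcripts was lower in Dio3KO-labelled testes than in wild type. When the Dio3KO-labelled means were rescaled by 1.071 to the same total and the unequal-variance test was recomputed, 36 members were lower and 0 higher. Over all genes the rescaling changed the split from 2471 lower and 2170 higher to 1426 lower and 3461 higher.

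**Figure D1:**
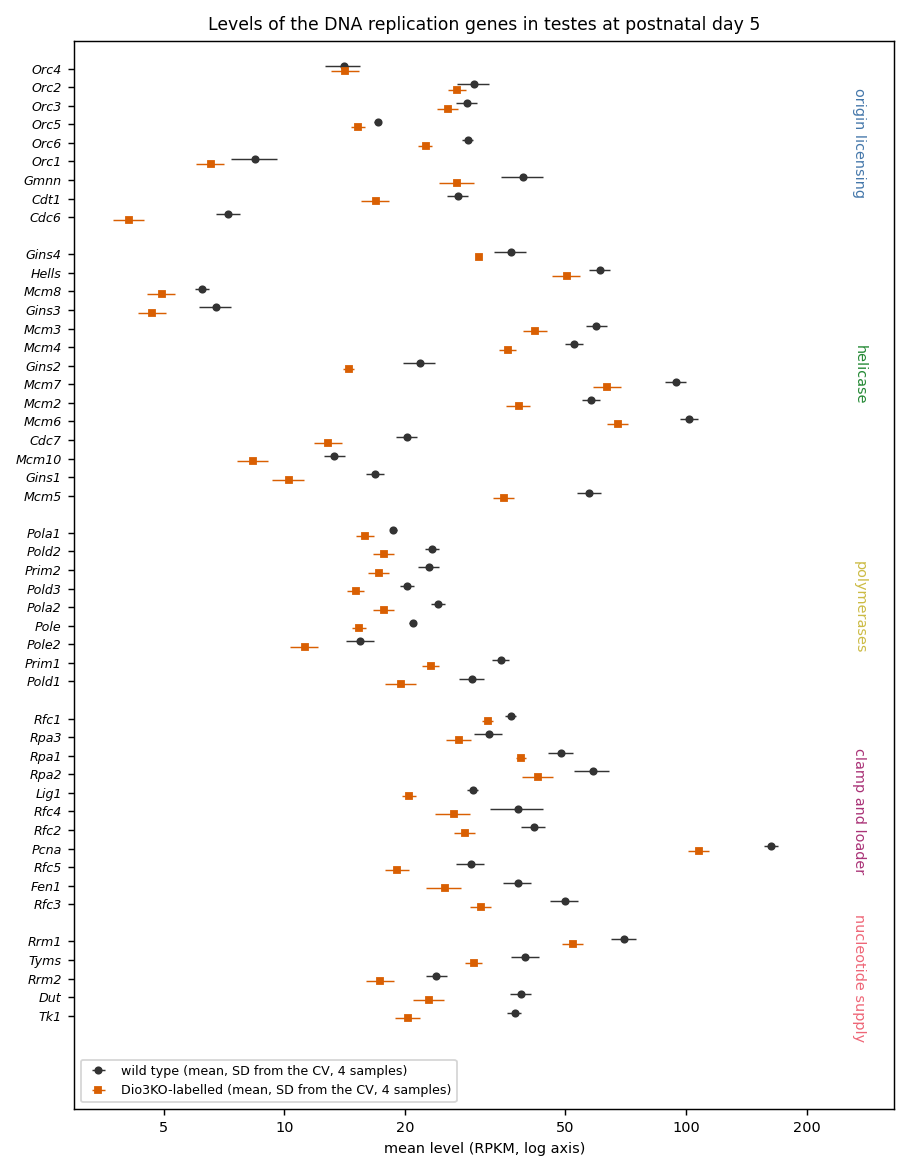
Mean level of each replication gene in RPKM (log axis) in wild-type (circles) and Dio3KO-labelled testes (squares), with bars of 1 SD computed from the deposited CV, 4 samples per group, grouped by role. Pcna has the highest level, 162 RPKM in wild type and 108 RPKM in Dio3KO-labelled testes, and the bars overlap for Orc2, Orc3 and Orc4.

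Some promoters of these genes share letters that the choice of members did not use. RefSeq promoters of build GRCm38.p6 (250 bases before to 50 bases after the annotated start, 300 bases in all) were found for 40 of 48 members, as 49 promoters. Both strands were searched for the E2F-type letters TTTCCCGC, TTTGGCGC, TTTCGCGC and TTTGCCGC. Of the 49 member promoters, 17 held such a match (34.7%), compared with 744 of all 32851 promoters (2.26%) and 531 of 13444 promoters of genes tested (3.95%). The base composition was close, with a median of 62.3% G and C in member promoters and 60.7% in promoters of genes tested. The CCAAT box (letters CCAAT) was in 51.0% of member promoters and 38.0% of those of genes tested, and the CHR element (letters TTTGAA) in 12.2% and 12.0%. A DR4 element, taken as AGGTCA followed after 4 bases by a second AGGTCA, was in 0 of the 49 member promoters and in 5 of all 32851. A match is a description of letters, not a bound site, and a promoter without one may still hold a variant of the motif.

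By role, the E2F-type letters were in the promoters of 4 of 8 matched licensing genes, 7 of 10 helicase genes, 4 of 7 polymerase genes, 2 of 10 clamp and loader genes and 0 of 5 nucleotide supply genes. Members with a match had a median log2 ratio of -0.5 (17 genes) and members without one -0.45. The matches numbered 23, of which 13 lay wholly before the RefSeq start of the promoter searched, in 10 genes. Those in Orc1, Cdc6, Mcm7, Gins3, Hells and Rfc3 lie inside the gene as GENCODE M21 annotates it, where an earlier start is given. These 10 are shown because they place the shared letters in genes discussed next, most of them of the helicase and of licensing, and because Orc1 and Orc3 hold the letters without having passed the test. Capitals mark the match or overlapping matches, with up to 26 bases on either side, read on the strand of the gene.

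Orc1, chr4:108579401-108579453, plus strand: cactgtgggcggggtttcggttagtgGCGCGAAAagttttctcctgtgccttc
Orc3, chr4:34614950-34615009, minus strand: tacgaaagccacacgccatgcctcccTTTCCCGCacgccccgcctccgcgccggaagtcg
Cdc6, chr11:98907987-98908046, plus strand: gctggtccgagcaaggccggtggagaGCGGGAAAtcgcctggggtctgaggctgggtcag
Mcm5, chr8:75109330-75109393, plus strand: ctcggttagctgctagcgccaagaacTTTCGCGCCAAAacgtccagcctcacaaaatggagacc
Mcm6, chr1:128359778-128359841, minus strand: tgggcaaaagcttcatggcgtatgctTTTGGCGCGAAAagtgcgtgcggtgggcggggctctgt
Mcm6, chr1:128359719-128359778, minus strand: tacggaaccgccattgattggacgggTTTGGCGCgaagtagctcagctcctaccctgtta
Mcm7, chr5:138172015-138172074, minus strand: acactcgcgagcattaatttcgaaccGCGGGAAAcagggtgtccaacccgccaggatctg
Gins3, chr8:95633492-95633551, plus strand: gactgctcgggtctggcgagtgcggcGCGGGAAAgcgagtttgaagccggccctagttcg
Hells, chr19:38930902-38930961, plus strand: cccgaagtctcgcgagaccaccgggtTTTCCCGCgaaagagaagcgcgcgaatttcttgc
Pola1, chrX:93632260-93632319, minus strand: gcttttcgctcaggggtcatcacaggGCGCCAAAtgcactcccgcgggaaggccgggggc
Rfc3, chr5:151651209-151651244, minus strand: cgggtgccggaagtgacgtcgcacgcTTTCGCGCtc

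In Mcm5 and in the more distant Mcm6 window, 2 matches on opposite strands overlapped, giving the longer run of capitals. Among all tested genes with a promoter in the table, 136 of 505 with the E2F-type letters were called lower (26.9%), compared with 1578 of 10032 without them (15.7%). The members are among these genes. Most genes with the letters were therefore not called lower, and the 505 had a median log2 ratio of -0.11 against -0.04 for the rest.

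Among the licensing genes, the loading factors fell while most of the origin recognition complex did not pass. Cdc6, the ATPase that joins the origin complex to load the helicase, fell from 7.25 RPKM (CV 0.07) to 4.11 RPKM (CV 0.09), for a log2 ratio of -0.75 ± 0.07 (SE), and the authors' deposited table lists 0.0044 as its adjusted p. Its loading partner Cdt1 fell from 27.1 RPKM (CV 0.06) to 16.9 RPKM (CV 0.08), and Gmnn, the geminin that inhibits Cdt1, fell from 39.3 RPKM (CV 0.12) to 26.9 RPKM (CV 0.1). The loader and its inhibitor were thus both lower, at 62.4% and 68.5% of their wild-type means.

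As a complex, the 6 subunits of the origin recognition complex had a median log2 ratio of -0.16. Orc6, the smallest subunit, fell from 28.6 RPKM (CV 0.03) to 22.5 RPKM (CV 0.04), and Orc5 fell from 17.1 RPKM (CV 0.02) to 15.3 RPKM (CV 0.04). The other four did not pass. Orc1, the subunit whose level is known to follow the cell cycle, had means of 8.47 and 6.56 RPKM for a log2 ratio of -0.35 ± 0.1 (SE), and the authors' deposited table lists 0.0852 as its adjusted p. Orc2 had means of 29.6 and 27.0 RPKM for a log2 ratio of -0.13 ± 0.07 (SE), and the authors' deposited table lists 0.2356 as its adjusted p. For Orc3 the means were 28.5 and 25.5 RPKM, the log2 ratio -0.16 ± 0.06 (SE), and 0.0949 is the adjusted p in the authors' deposited table. Orc4 was the one member with a higher mean in Dio3KO-labelled testes, 14.2 against 14.1 RPKM, for a log2 ratio of 0.01 ± 0.09 (SE), and the authors' deposited table lists 0.7583 as its adjusted p. The 95% interval of that ratio, from the CVs with 6 degrees of freedom, was -0.21 to 0.23 and did not reach the median of the members. The moderated limma test also called Orc1 lower, with an adjusted p of 0.0104, and left Orc2, Orc3 and Orc4 uncalled. Orc3 lay just over the limit, with a limma adjusted p of 0.0517, and its 95% interval was -0.31 to -0.01. The summed level of the complex was 126 RPKM in wild type and 111 RPKM in Dio3KO-labelled testes. That is 87.8% of wild type, near the 90.2% of the sum over all genes in the table. Orc5 lost its call when the groups were rescaled to the same total, and the median of the complex was then -0.06.

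The ring of Mcm2 to Mcm7, the core of the replicative helicase, was lower in all 6 subunits and by nearly the same proportion. Mcm5 fell most, from 57.5 RPKM (CV 0.07) to 35.1 RPKM (CV 0.06), for a log2 ratio of -0.7 ± 0.07 (SE), and the authors' deposited table lists 0.0075 as its adjusted p. Mcm6 fell from 102 RPKM (CV 0.05) to 67.6 RPKM (CV 0.06) and Mcm7 from 94.4 RPKM (CV 0.06) to 63.6 RPKM (CV 0.08). The other three, Mcm2 (58.0 to 38.3 RPKM), Mcm3 (59.8 to 42.1 RPKM) and Mcm4 (52.6 to 36.0 RPKM), fell as well. Per length, Mcm6 and Mcm7 stood above the other four subunits in both groups. The log2 ratios of the 6 subunits ran from -0.7 to -0.5 with an SD of 0.07 among them, about the size of their own errors, and their summed level was 424 RPKM in wild type and 283 RPKM in Dio3KO-labelled testes, or 66.7% of wild type.

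Other helicase genes fell too, with exceptions at the weak end. Cdc7, the kinase that fires origins, fell from 20.2 RPKM (CV 0.06) to 12.9 RPKM (CV 0.08), and Mcm10, a factor needed to activate the helicase, fell from 13.3 RPKM (CV 0.06) to 8.36 RPKM (CV 0.09). Of the GINS subunits, Gins1 had the lowest p among the helicase genes. It fell from 16.8 RPKM (CV 0.05) to 10.3 RPKM (CV 0.09), for a log2 ratio of -0.69 ± 0.07 (SE), and the authors' deposited table lists 0.0035 as its adjusted p. Gins2 fell from 21.7 to 14.5 RPKM and Gins3 from 6.74 to 4.69 RPKM. Gins4 had means of 36.6 RPKM (CV 0.09) and 30.6 RPKM (CV 0.01), for a log2 ratio of -0.26 ± 0.06 (SE), and the authors' deposited table lists 0.0921 as its adjusted p. It was the one helicase gene that did not pass. The limma adjusted p of Gins4 was 0.00656. Mcm8, which acts in recombination repair rather than in the ring, fell from 6.24 to 4.95 RPKM, and Hells, a chromatin remodeller related to helicases, fell from 61.1 to 50.4 RPKM.

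**Figure D2:**
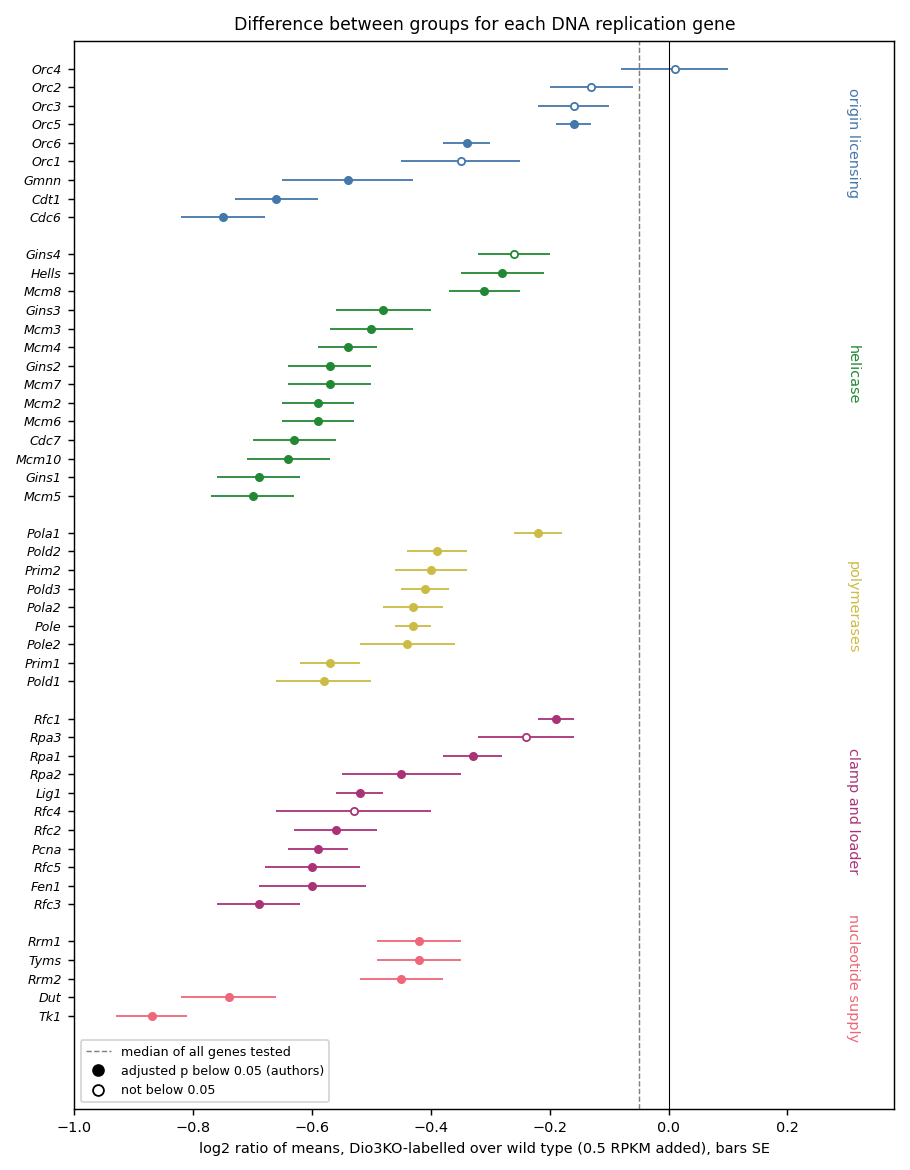
Log2 ratio of the group means for each replication gene, ordered within its role, with bars of 1 SE computed from the deposited CVs. Open circles mark the 7 members with an adjusted p of 0.05 or more, 4 of them in the origin recognition complex, and the dashed line is the median of all genes tested, -0.05.

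All 9 polymerase genes fell. The catalytic subunit of polymerase delta, Pold1, fell most, from 29.3 RPKM (CV 0.07) to 19.5 RPKM (CV 0.09), for a log2 ratio of -0.58 ± 0.08 (SE), and the authors' deposited table lists 0.0074 as its adjusted p. The primase subunit Prim1 fell from 34.6 RPKM (CV 0.05) to 23.1 RPKM (CV 0.05), and its partner Prim2 from 22.9 to 17.2 RPKM. Pole, the catalytic subunit of polymerase epsilon, had the lowest p among the polymerase genes. It fell from 20.9 RPKM (CV 0.02) to 15.3 RPKM (CV 0.04), for a log2 ratio of -0.43 ± 0.03 (SE), and the authors' deposited table lists 0.0025 as its adjusted p. Its accessory subunit Pole2 fell from 15.4 to 11.2 RPKM.

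Pola1, the catalytic subunit of polymerase alpha, fell least in this group. Its means were 18.6 RPKM (CV 0.02) and 15.9 RPKM (CV 0.05), for a log2 ratio of -0.22 ± 0.04 (SE), and the authors' deposited table lists 0.0164 as its adjusted p. The accessory subunit Pola2 fell from 24.1 to 17.7 RPKM, the delta subunits Pold2 and Pold3 from 23.3 to 17.7 RPKM and from 20.2 to 15.1 RPKM. The 3 polymerases stood close together when summed by complex, at 73.8% of wild type for alpha with primase, 71.8% for delta and 73.2% for epsilon. Pola1 lost its call when the groups were rescaled to the same total.

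Around the sliding clamp, Pcna was the most abundant member and fell from 162 RPKM (CV 0.04) to 108 RPKM (CV 0.06), or 66.3% of wild type. The clamp loader RFC split into its large subunit and the rest. Rfc3, a small subunit, fell from 49.9 RPKM (CV 0.08) to 30.9 RPKM (CV 0.06), for a log2 ratio of -0.69 ± 0.07 (SE), and the authors' deposited table lists 0.0113 as its adjusted p. Rfc2 (41.7 to 28.1 RPKM) and Rfc5 (29.1 to 19.1 RPKM) fell by similar proportions. Rfc4 had means of 38.2 RPKM (CV 0.15) and 26.4 RPKM (CV 0.1) for a log2 ratio of -0.53 ± 0.13 (SE), and the authors' deposited table lists 0.0551 as its adjusted p. The CV of Rfc4 in wild type was the highest of all members, and its limma adjusted p was 0.00239. Rfc1, the large subunit, fell only from 36.6 RPKM (CV 0.03) to 32.1 RPKM (CV 0.03), for a log2 ratio of -0.19 ± 0.03 (SE), and the authors' deposited table lists 0.0099 as its adjusted p.

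Lig1, the ligase that seals Okazaki fragments, had the lowest p of its role. It fell from 29.4 RPKM (CV 0.03) to 20.4 RPKM (CV 0.04), for a log2 ratio of -0.52 ± 0.04 (SE), and the authors' deposited table lists 0.0022 as its adjusted p. Fen1, the nuclease that trims the same fragments, fell from 38.1 RPKM (CV 0.08) to 25.04 RPKM (CV 0.1). The single-strand binding complex RPA moved less: Rpa1 fell from 48.8 to 38.8 RPKM and Rpa2 from 58.6 to 42.8 RPKM. Rpa3 had means of 32.3 RPKM (CV 0.08) and 27.2 RPKM (CV 0.07), for a log2 ratio of -0.24 ± 0.08 (SE), and the authors' deposited table lists 0.0582 as its adjusted p. The limma adjusted p of Rpa3 was 0.0141. Rfc1 and Rpa1 also lost their calls when the groups were rescaled to the same total.

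Nucleotide supply held the deepest fall of all members. Tk1, the thymidine kinase of S phase, went down from 37.4 RPKM (CV 0.04) to 20.3 RPKM (CV 0.07), for a log2 ratio of -0.87 ± 0.06 (SE), and the authors' deposited table lists 0.0022 as its adjusted p, the lowest among the members together with Lig1. Dut, which removes dUTP and supplies the precursor of thymidylate, fell from 38.7 RPKM (CV 0.06) to 22.9 RPKM (CV 0.09), or 59.2% of wild type. Both subunits of ribonucleotide reductase, which makes deoxynucleotides, also fell. Rrm2 fell from 23.9 RPKM (CV 0.06) to 17.3 RPKM (CV 0.08). Rrm1 fell from 70.1 RPKM (CV 0.07) to 52.4 RPKM (CV 0.06), for a log2 ratio of -0.42 ± 0.07 (SE), and the authors' deposited table lists 0.0119 as its adjusted p. Tyms, the thymidylate synthase, fell from 39.8 RPKM (CV 0.08) to 29.6 RPKM (CV 0.05). The listed pseudogene Tyms-ps, named after its values were seen, stood at 5.99 and 4.68 RPKM, and reads shared between it and Tyms could not be separated here.

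The members did not all move by the same amount relative to their errors. For 29 of 48 the 95% interval of the log2 ratio held the member median of -0.49. In 12 members the interval lay wholly nearer 0, namely Orc2 to Orc6, Mcm8, Gins4, Hells, Pola1, Rfc1, Rpa1 and Rpa3. In 7 it lay wholly below the median, namely Cdc6, Cdt1, Mcm5, Gins1, Rfc3, Tk1 and Dut. Of the licensing genes only 2 of 9, Orc1 and Gmnn, had an interval that held the median, compared with 8 of 9 polymerase genes. These intervals treat each gene alone, and differences between 2 members could not be tested without values of single samples. Across the 48 genes, which are not independent, the rank correlation of the wild-type level with the log2 ratio was -0.19 (Spearman's rho).

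Further transcripts of the same genes gave the same direction in nearly every case. The table held 115 transcripts of the members, and 31 members had more than 1. Of the 67 further transcripts, all above 1 RPKM, 55 fell, 0 rose and 12 did not pass, and 66 had a negative log2 ratio. The exception was a transcript of Pola1 (uc009tst.1), with means of 13.7 and 13.9 RPKM. Transcripts of 1 gene share exons and reads, so they are not separate evidence. In 22 of the 31 genes the log2 ratios of the transcripts differed by less than 0.1.

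The widest spread was in Tyms. Its transcript uc012dty.1 fell from 42.3 RPKM (CV 0.08) to 23.8 RPKM (CV 0.05). Its log2 ratio was thus -0.82 ± 0.07 (SE), while the other three, among them the one that stands for the gene, had ratios between -0.42 and -0.41. In Pola2 the representative transcript had the weakest fall, -0.43, and the 5 others lay between -0.67 and -0.48. In Pole2 one transcript (uc007nrw.1) was at -0.67 against -0.44 for the representative one. For Rfc4, which did not pass by its representative transcript, 1 further transcript (uc007ytj.1) fell from 19.7 to 12.8 RPKM where the authors' deposited table lists 0.0458 as its adjusted p. All further transcripts of Orc2, Orc3 and Orc4 failed to pass, with ratios from -0.16 to -0.08.

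**Figure D3:**
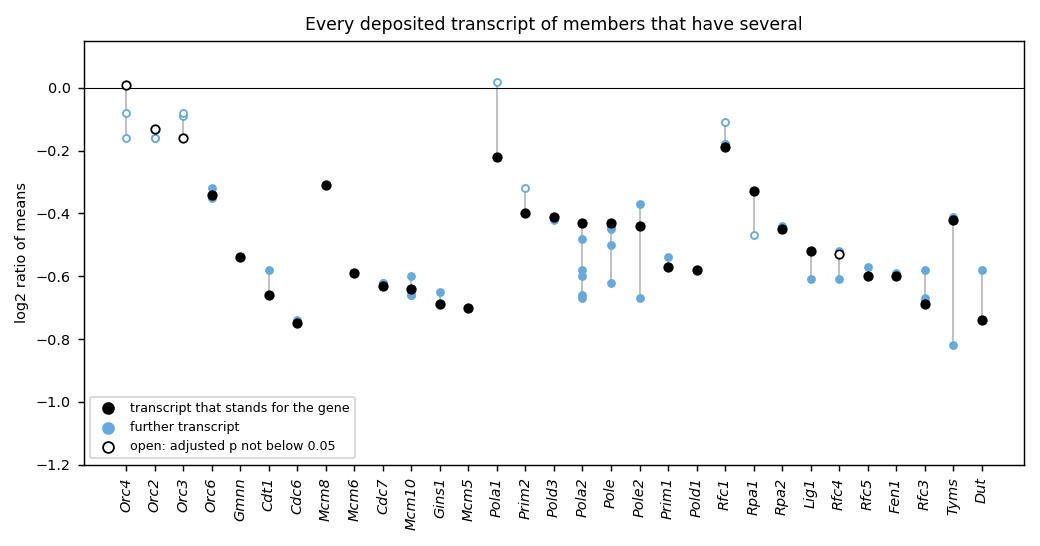
Log2 ratio of the group means for every deposited transcript of the 31 members that have more than 1, with the representative transcript in black and further ones in blue, open where the adjusted p is 0.05 or more. Transcripts of 22 of the 31 genes differ by less than 0.1, the widest spreads are in Tyms, Pole2, Pola1, Pola2 and Pole, and the single further transcript above 0 belongs to Pola1.

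Genes that start beside the members were read next. In GENCODE M21, which uses GRCm38 (mm10), the 48 genes lie on 14 chromosomes. For 12 members a tested protein-coding gene starts on the opposite strand within 1000 bases. Of these 12 neighbours 2 fell, 2 rose and 8 did not pass, a share called close to the 29.9% over all genes tested. The neighbours had a median log2 ratio of -0.05, while the 12 members themselves had a median of -0.39. Abhd12, a lipase that starts 659 bases from Gins1, rose from 28.8 to 37.9 RPKM, and Pxmp2, a peroxisomal membrane protein that starts 120 bases from Pole, rose from 6.08 to 8.19 RPKM. Prkdc, the DNA-dependent protein kinase that starts 466 bases from Mcm4, had means of 6.66 and 7.17 RPKM and did not pass. Afmid, which starts 168 bases from Tk1 and overlaps it, did not pass either, at 2.63 and 2.69 RPKM. The neighbours that fell were Ap4m1, beside Mcm7 (17.0 to 13.7 RPKM), and Trmt6, beside Mcm8 (18.0 to 16.1 RPKM). Ap4m1 overlaps Mcm7 by 421 bases, and the sources used here do not give the strand setting of the counting, so reads of the overlap could belong to either gene. The neighbours were named after their values were seen.

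Other genes of the replication pathway were read from lists beyond the 48. Of 43 such genes, 31 fell, 2 rose and 10 did not pass, and their median log2 ratio was -0.39. Over all genes tested 15.9% were called lower and 14.0% higher. Limma called 34 of the 43 lower and 2 higher. The unequal-variance test called 30 lower and 2 higher, and 25 lower and 2 higher after rescaling to the same total. Among 13 firing and fork factors 11 fell and 0 rose in the authors' deposited table (limma called 11 lower and 0 higher, also at an unadjusted p below 0.05). Ticrr, which helps Cdk2 to fire origins, fell from 3.15 to 1.61 RPKM and Timeless, a fork protection factor, from 15.8 to 9.85 RPKM, while Topbp1 (43.0 and 40.7 RPKM) and Mcmbp (50.7 and 46.9 RPKM), which bind the checkpoint and MCM proteins, did not pass. Among 14 further subunits and processing factors 8 fell. The replicative topoisomerase Top2a fell from 119 to 71.4 RPKM and Dscc1, part of a second clamp loader, from 9.95 to 5.88 RPKM. Top1, a topoisomerase that also serves transcription, rose from 35.7 to 42.0 RPKM, and the authors' deposited table lists 0.0492 as its adjusted p. Top2b, the isoform of non-dividing cells, had means of 46.7 and 51.6 RPKM and did not pass.

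Chromatin assembly genes fell in 6 of 7 cases and 0 rose in the authors' deposited table (limma called 6 lower and 0 higher, also at an unadjusted p below 0.05). Uhrf1, which guides DNA methylation after the fork, fell from 55.1 to 36.5 RPKM, the histone chaperone Chaf1a from 17.7 to 12.0 RPKM and the histone chaperone Nasp from 68.6 to 53.0 RPKM. The chaperone Asf1a, at 22.2 and 21.7 RPKM, did not pass. Of 9 further genes of nucleotide synthesis 6 fell and 1 rose, beside 15.9% lower and 14.0% higher over all genes tested. The unequal-variance test called 5 of them lower and 1 higher, and 4 lower and 1 higher after rescaling to the same total. Dctd, a deaminase that feeds thymidylate synthesis, had means of 8.59 and 6.21 RPKM and did not pass. Samhd1, which degrades deoxynucleotides, fell from 23.7 to 21.0 RPKM. The riser was Rrm2b, the reductase subunit that serves cells outside S phase. Its level went from 4.55 RPKM (CV 0.08) to 5.43 RPKM (CV 0.06), for a log2 ratio of 0.23 ± 0.07 (SE), and the authors' deposited table lists 0.0455 as its adjusted p. The log2 ratio of its S-phase counterpart Rrm2 was -0.45 ± 0.07 (SE).

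Genes that copy or repair DNA outside the nuclear replication fork were read against the same shares, 15.9% lower and 14.0% higher over all genes tested. Of 11 genes of mitochondrial replication and nucleotide supply, 3 fell, 1 rose and 7 did not pass, at a median log2 ratio of -0.15, and limma called 5 lower and 1 higher. The mitochondrial DNA-binding factor Tfam fell from 15.7 to 13.0 RPKM, Mgme1, a mitochondrial nuclease, had means of 7.4 and 5.92 RPKM and did not pass, and the transcription factor Tfb2m rose from 12.3 to 14.2 RPKM. Tk2, the mitochondrial thymidine kinase, was at 10.9 RPKM (CV 0.12) and 11.8 RPKM (CV 0.04) and did not pass, beside the fall of Tk1. Of 11 repair and translesion polymerases and ligases, 3 fell and 0 rose in the authors' deposited table (limma called 4 lower and 0 higher, 5 lower and 0 higher at an unadjusted p below 0.05), with a median of -0.13. After rescaling to the same total, the recomputed unequal-variance test left 1 lower and 1 higher in the mitochondrial list and 1 lower and 0 higher in the repair list. Polh, a translesion polymerase, fell from 8.71 to 6.33 RPKM and Mad2l2, a subunit of polymerase zeta, from 10.2 to 8.46 RPKM. Its partner Rev3l (23.6 and 24.6 RPKM) and the ligase Lig4 (2.19 and 2.23 RPKM) did not pass.

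Every one of the 22 mitotic genes listed fell, with a median log2 ratio of -0.73 and ratios from -1.13 to -0.51. Over all genes tested 15.9% were called lower and 14.0% higher. The mitotic list was chosen with earlier results of these data known, so its count is not independent support. Ube2c, which tags mitotic proteins for destruction, fell from 66.3 to 30.1 RPKM and the survivin gene Birc5 from 42.0 to 23.2 RPKM. Kif20a (46.2 to 32.3 RPKM) and Cenpe (17.1 to 11.8 RPKM), which fell least, had ratios near the median of the replication genes. Summed levels were 59.4% of wild type for the mitotic list and 71.0% for the replication genes. No test of the difference between the lists was made, and the lists are set side by side as counts and medians only.

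**Figure D4:**
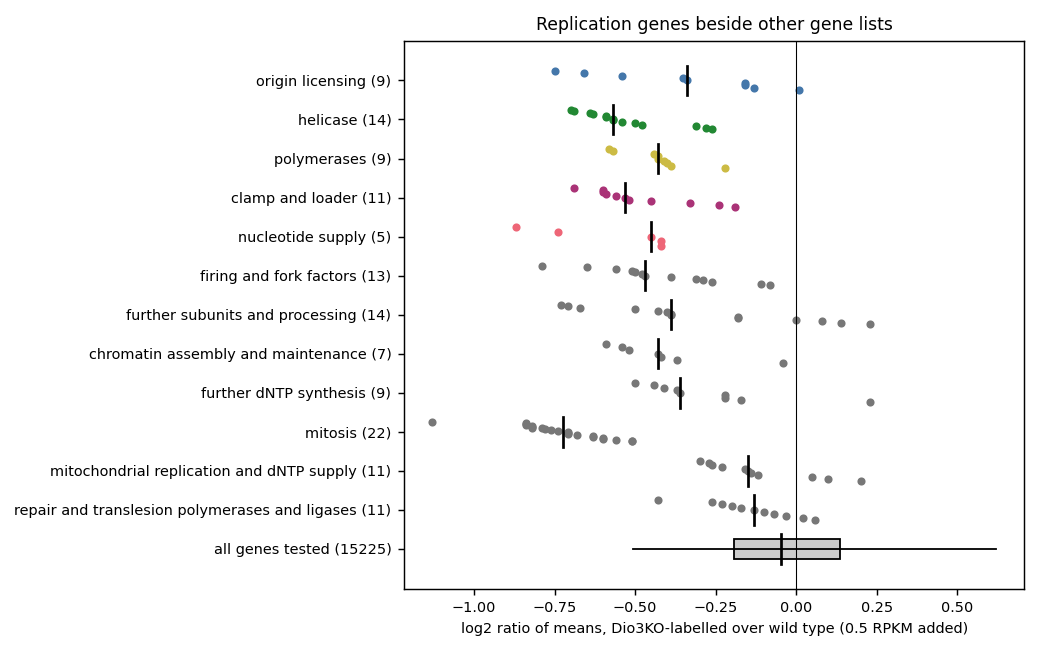
Log2 ratio of the group means for each gene of the 5 groups of replication genes (coloured), of other replication, mitotic, mitochondrial and repair genes (grey), with the number of genes in brackets and the median as a vertical bar. The last line shows all 15225 genes tested as a box of the central quartiles with lines from the 5th to the 95th percentile. Medians run from -0.73 for mitosis to -0.13 for repair genes, and the 5 replication groups lie between -0.57 and -0.34.

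Markers of the cell types in the testis were read beside these values. Over all genes tested the deposited p called 15.9% lower and 14.0% higher, and limma 23.2% and 18.6%. Lists of so few genes cannot be told from these shares by a count of 1, 2 or 3. By the authors' deposited p, 0 of 14 tested germ cell markers passed in either direction, and limma called 3 lower and 2 higher, with 4 lower and 2 higher at an unadjusted p below 0.05. The median log2 ratio of these markers was -0.23, and 11 of 14 were negative. Their median CV in wild type was 0.2, against 0.06 for the replication genes, so not passing does not show an unchanged level. Their summed level was 324 RPKM in wild type and 303 RPKM in Dio3KO-labelled testes. Mael, a germ cell gene, was at 69.4 and 57.0 RPKM. Of 11 Sertoli cell markers 3 rose and 3 fell, and the sum went from 2584 to 3074 RPKM. Among these, chosen after their values were seen, the junction gene Cldn11 rose from 83.6 to 299.85 RPKM, while Amh, the anti-Müllerian hormone of immature Sertoli cells, fell from 284 to 127 RPKM and the FSH receptor gene Fshr fell from 17.8 to 9.49 RPKM. Of 7 Leydig cell markers 2 rose and 1 fell, with sums of 472 and 643 RPKM. The risers were Cyp11a1 (64.2 and 156 RPKM) and Hsd3b1 (158 and 245 RPKM), while Nr5a1 fell from 82.1 to 68.6 RPKM. Insl3 (84.7 and 70.0 RPKM), Cyp17a1 (55.45 and 55.07 RPKM), Star (24.8 and 44.9 RPKM) and Lhcgr (2.95 and 3.35 RPKM) did not pass. Of 5 peritubular myoid markers 2 rose and 1 fell, with sums of 574 and 527 RPKM. Acta2, the largest part of the sum, fell from 401 to 346 RPKM. Des rose from 13.75 to 25.3 RPKM and Myh11 from 57.5 to 66.5 RPKM. Tagln (88.4 and 74.9 RPKM) and Cnn1 (13.1 and 13.9 RPKM) did not pass.

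The next lists are read against the same shares, 14.0% higher over all genes tested by the deposited p and 18.6% by limma. Of 6 macrophage markers 4 rose and 0 fell in the authors' deposited table, limma called 6 higher and 0 lower, also at an unadjusted p below 0.05, and the sum went from 30.7 to 63.5 RPKM (Mrc1 at 10.6 and 21.6 RPKM, Csf1r at 7.85 and 15.9 RPKM). Of 5 endothelial markers 3 rose and 0 fell in the authors' deposited table, limma called 4 higher and 0 lower, also at an unadjusted p below 0.05, with sums of 47.2 and 57.8 RPKM (Cdh5 at 23.5 and 24.4 RPKM, Kdr at 8.57 and 12.5 RPKM). Erythroid precursors also divide, and 5 of their markers in the table summed to 11.8 and 9.15 RPKM, with Alas2 at 8.0 RPKM (CV 0.48) and 7.3 RPKM (CV 0.18) and Slc4a1 at 1.78 RPKM (CV 1.45) and 0.58 RPKM (CV 0.32). No marker found in the table was at 0 in both groups. The part of cell type proportions in the fall of the replication genes was not tested.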

How the data were processed

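The authors deposited 1 table of transcripts with the mean RPKM of each group, and FastQC, Novoalign 2.08 and genome build mm10 are listed, without a role, per the submitters' processing notes. The CV of each group, a ratio of the SD to the mean, was also deposited, as was an adjusted p-value of wild type against KO, per the file headers. The test behind that p-value, the counting tool, the annotation and the filters are, in the sources used here, not given. Depth per sample is unknown, so no counting interval was made, and 0 columns of single samples were left unused.

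Of 147417 lines, 49139 were left once repeats were dropped. Older symbols were led to current ones through RefSeq and GENCODE M21, giving 23765 genes, and 15225 of them reached 1 RPKM on average in wild type or KO. Members were matched by deposited symbol, and 4 of their transcripts under older symbols were not used. Log2 ratios had 0.5 RPKM added to each mean, which understates changes of low genes. Standard errors follow from the CVs (delta method, 4 samples in each group), and intervals with 6 degrees of freedom. "Rose" and "fell" are kept for a deposited adjusted p below 0.05. A moderated test shrank these variances with limma 3.58.1 (squeezeVar with trend, robust) in R 4.3.3, and an unequal-variance test was computed on the linear scale. Both were adjusted by Benjamini-Hochberg over all genes tested. The moderated one was also run on simulated data with 200 changed genes. That is far fewer than it called here, so the simulation does not vouch for the calls. A CV of 0 was set to 0.0025. Promoters were scanned in Python 3.11.15.

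Members and lists were chosen with earlier results of these data known. Named in full are, in each role, the members with the lowest and highest ratio and the lowest p, those that did not pass, and from other lists the 2 lowest, the 2 highest and single risers, or for markers the 2 most abundant. One gene that the rule names is not reported here.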

Additional observations from a re-analysis of the deposited data

How the results depend on the processing

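Of 65 values recomputed under an alternative setting, 61 stayed within 1.5 times the count or within the error of the ratio. Some of these settings could not move the value, so that tally overstates how far the results were tried. The count of members lower was 41 with the unequal-variance test, 45 with limma and 28 at a threshold of 0.01. It was also 41 with no filter on low values and with a limit of 5 RPKM. Those 2 settings could not change it, because the lowest wild-type mean of a member was 6.24 RPKM. Centring the ratios on all genes left 41 too, but it keeps the deposited p and could only turn a sign. Under all of these settings 0 members were higher. With the second most abundant transcript the count lower was 26, because only 31 members have one. The median log2 ratio was -0.4 with groups rescaled to the same total, -0.53 with transcripts summed, and between -0.51 and -0.47 with 0.1 or 1 RPKM added. At a threshold of 0.01 the count lower was 3 for origin licensing and 3 for nucleotide supply, against 5 for each. In a setting added after the data were seen, rescaling with a recomputed test left 36 members lower, and Hells, Orc5, Pola1, Rfc1 and Rpa1 lost their calls. Rescaling moved the median of all genes from -0.05 to 0.04. No paired analysis was possible because the columns hold group means and carry no replicate numbers. For the same reason no replicate could be left out, so a single sample that decides a mean would show only as a high CV.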
